A study of Rattus norvegicus with 10 samples.

Results

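The genes described here are 8 genes of the pericentral hepatocyte and its Wnt programme, Glul, Oat, Rhbg, Slc1a2, Rgn, Tbx3, Axin2 and Lgr5. They were chosen by name, as the array probes whose design accession belongs to one of these rat genes in RefSeq, and they made up 8 of the 13832 genes that the probes named, with 10 probes of 41012. They were measured in the livers of 5 rats given diethylnitrosamine and thioacetamide (DEN/TAA) and of 5 rats given vehicle only (control), all male Wistar rats labelled as 23 weeks old, on whole rat genome 4x44K oligonucleotide arrays of 1 colour (Cy3), with 1 array per rat. Diethylnitrosamine, an alkylating liver carcinogen, was injected once into the abdomen at 200 mg/kg in rats 6 weeks old. Thioacetamide, a toxin that hepatocytes activate, followed from 2 weeks later at 200 mg/kg, with 3 weeks on and 1 week off in each cycle, and the labels give 23 weeks of it, which does not add up with the labelled age. The labels name the tissue as liver and do not say whether nodules, tumours or the tissue between them were sampled, and 1 array was taken as 1 rat, which rests on the replicate numbers in the labels.

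Hepatocytes differ along the axis from the portal vein to the central vein. Wnt ligands from endothelial cells of the central vein keep beta-catenin active in the hepatocytes next to it, and these cells then make glutamine synthetase, take up glutamate and catch the ammonia that the periportal urea cycle has let through. Glul encodes glutamine synthetase, which joins ammonia to glutamate. Oat, ornithine aminotransferase, makes glutamate semialdehyde from ornithine, Rhbg is an ammonium carrier of the Rh family, and Slc1a2 is a glutamate carrier best known from astrocytes. Axin2 is a feedback inhibitor and common readout of Wnt signalling, Lgr5 a receptor for R-spondins, which amplify Wnt signals, and Tbx3 a T-box transcription factor that responds to beta-catenin in liver. Rgn, regucalcin, is a calcium-binding gluconolactonase of vitamin C synthesis, abundant in liver.

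Windows of 300 bases around the annotated starts, 250 before and 50 after, are shown for genes at the ends of the result: Rhbg, which rose, Oat, which fell most, and the 3 genes whose windows held the letters CTTTGA, part of the consensus site of the TCF/LEF factors through which beta-catenin acts. RefSeq gave windows for 6 of the 8 genes, 8 windows in all, and 3 of them held CTTTGA on either strand, printed in capitals, where 16.1% of 33469 windows of the same length in the table did. A match is a description of letters and not a site shown to be bound. The other windows, of the further start of Glul, the first start of Slc1a2 and of Rgn, held none.
Rhbg (GRCr8 chr2:176015100-176015399, minus strand): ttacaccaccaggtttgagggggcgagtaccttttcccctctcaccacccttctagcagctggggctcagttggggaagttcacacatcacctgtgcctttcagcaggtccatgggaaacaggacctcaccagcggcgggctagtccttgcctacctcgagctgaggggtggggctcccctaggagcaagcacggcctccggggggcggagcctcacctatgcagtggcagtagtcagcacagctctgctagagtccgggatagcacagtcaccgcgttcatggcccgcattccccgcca
Oat (GRCr8 chr1:196797705-196798004, minus strand): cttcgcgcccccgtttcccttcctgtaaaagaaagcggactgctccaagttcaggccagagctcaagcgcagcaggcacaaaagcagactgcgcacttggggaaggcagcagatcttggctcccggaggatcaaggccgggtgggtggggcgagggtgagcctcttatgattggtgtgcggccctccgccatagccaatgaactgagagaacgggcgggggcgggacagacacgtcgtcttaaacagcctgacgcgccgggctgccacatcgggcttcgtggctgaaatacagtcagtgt
Glul, upstream start (GRCr8 chr13:68519250-68519549, plus strand): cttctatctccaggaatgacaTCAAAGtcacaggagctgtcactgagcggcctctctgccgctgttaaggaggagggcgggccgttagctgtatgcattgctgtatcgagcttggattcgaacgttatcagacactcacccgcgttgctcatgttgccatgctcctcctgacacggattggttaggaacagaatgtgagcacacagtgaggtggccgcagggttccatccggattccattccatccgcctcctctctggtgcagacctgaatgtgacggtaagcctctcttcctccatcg
Slc1a2, downstream start (GRCr8 chr3:109507697-109507996, plus strand): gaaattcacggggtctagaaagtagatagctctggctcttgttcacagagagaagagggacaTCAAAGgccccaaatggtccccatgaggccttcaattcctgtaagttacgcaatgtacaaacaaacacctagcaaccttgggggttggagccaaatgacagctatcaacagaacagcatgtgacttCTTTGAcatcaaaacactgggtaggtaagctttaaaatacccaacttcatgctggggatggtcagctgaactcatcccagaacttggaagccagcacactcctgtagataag
Axin2 (GRCr8 chr10:94398535-94398834, plus strand): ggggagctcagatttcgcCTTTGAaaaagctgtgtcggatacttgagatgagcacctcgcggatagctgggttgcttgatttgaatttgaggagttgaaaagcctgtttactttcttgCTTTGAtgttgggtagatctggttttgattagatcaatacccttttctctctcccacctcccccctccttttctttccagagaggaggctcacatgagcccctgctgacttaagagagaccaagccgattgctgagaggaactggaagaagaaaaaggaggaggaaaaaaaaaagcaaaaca

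The arrays of the groups differed in brightness. On DEN/TAA arrays 36.1% to 46.6% of spots were well above background, and on control arrays 16.5% to 32.9%, with control replicate 5 lowest (exact permutation test, two-sided, p = 0.00794, which is the least that 5 against 5 arrays can give). Each value below is therefore a scaled level, log2 of the background-subtracted signal minus that array's own 75th percentile over the 6228 probes well above background on all 10 arrays. The percentile lay 1.48 higher on the log2 scale in DEN/TAA. The mean log2 signal of 5 spike-in probes was also higher there, by 0.82 (exact permutation test, two-sided, p = 0.00794). It ran from 13.60 to 14.07 in DEN/TAA and from 12.42 to 13.46 in control. The cause of the difference in brightness was not tested. Differences are DEN/TAA minus control, and the median of all 6854 genes tested was itself 0.33. The number of arrays limits the precision.

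Of the 8 genes, 6 passed the detection filter (at least 5 of 10 arrays) and were tested, and 5 of these fell while 1 rose. Across all genes tested, 16.3% fell, 39.2% rose and 55.5% passed in either direction (limma, Benjamini-Hochberg adjusted p under 0.05). Oat was 17.9-fold lower in DEN/TAA livers, Slc1a2 3.79-fold, Rgn 2.94-fold and Glul 2.66-fold lower, Tbx3 was lower with overlapping groups, and Rhbg was 5.54-fold higher. The groups did not overlap for 5 of the 6, against 39.5% of all genes tested. Axin2 was well above background on 2 arrays and Lgr5 on none, so neither was tested. In whole liver, fewer pericentral hepatocytes and less of an RNA in each of them cannot be told apart.

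**Figure D1:**
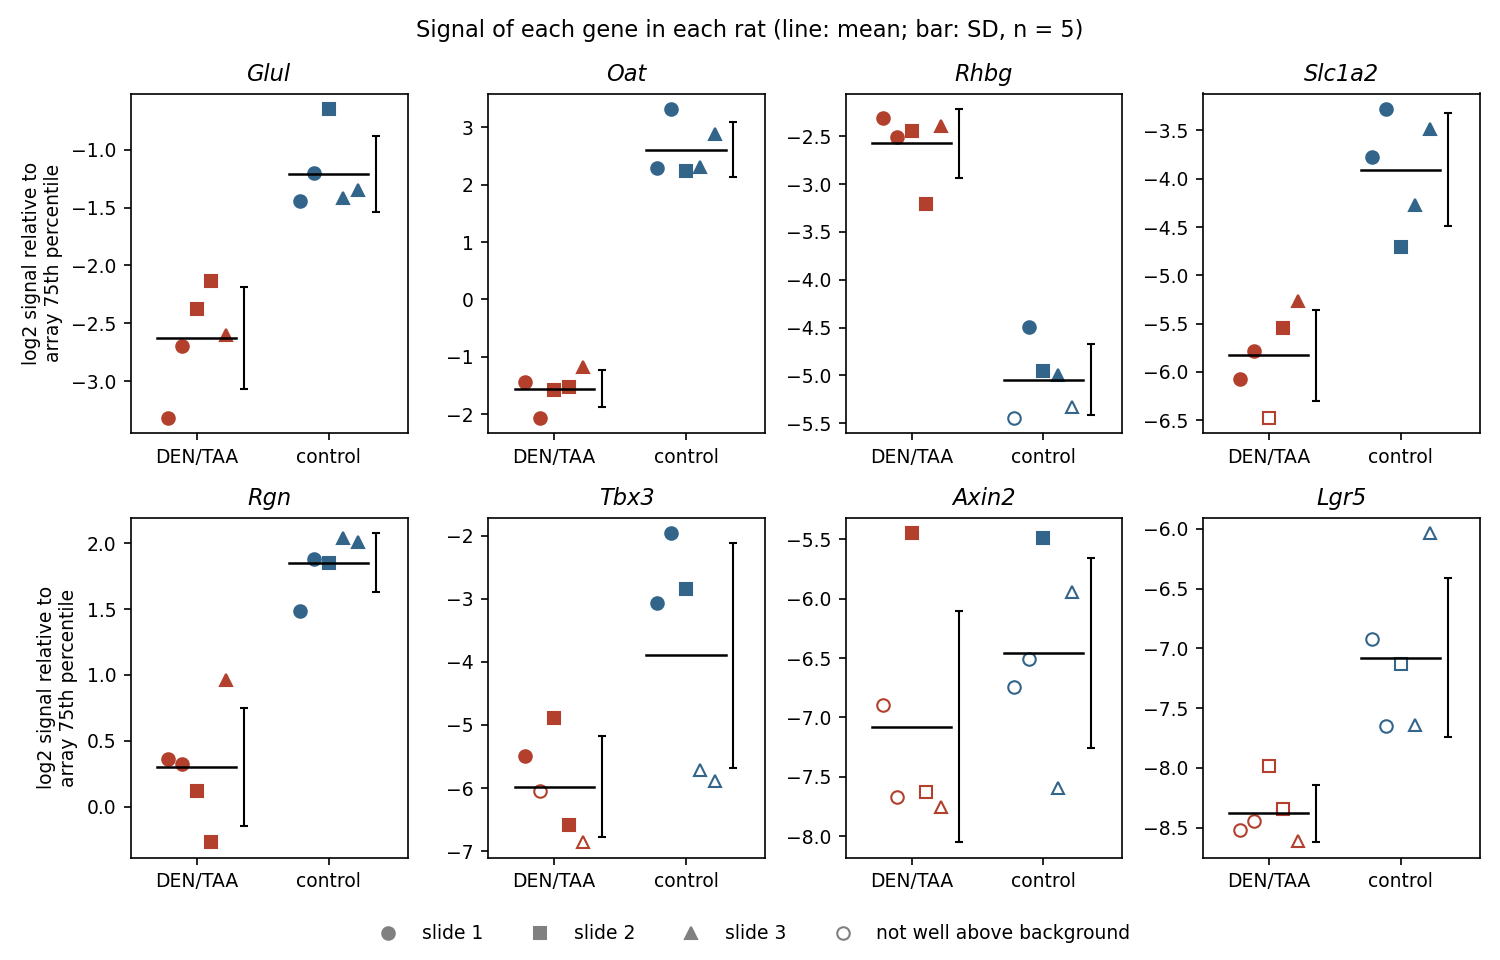
Scaled level (log2 signal relative to the array's 75th percentile, vertical axis) of each of the 8 genes in each of the 10 rats, with the mean as a line and the SD as a bar beside it (n = 5 per group); marker shape gives the slide and open markers are arrays where the gene was not well above background. Rhbg sits higher in all 5 DEN/TAA rats, Glul, Oat, Slc1a2 and Rgn lower, and the 2 low control values of Tbx3 both lie on slide 3.

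Glul, the enzyme that makes glutamine from ammonia, was lower in every DEN/TAA liver. Its scaled levels were -3.32, -2.70, -2.38, -2.14 and -2.60 in DEN/TAA replicates 1 to 5, against -1.45, -1.20, -0.65, -1.42 and -1.35 in control replicates 1 to 5. The highest DEN/TAA value lay 0.69 below the lowest control value. The means were -2.62 ± 0.44 in DEN/TAA and -1.21 ± 0.33 in control (SD, n = 5 each), a difference of -1.41 (SE 0.23, limma adjusted p = 0.000382), which ranked 398 from the lowest of the 6854 genes. The second Glul probe gave -1.53 (SE 0.26), also with no overlap. Before scaling, the background-subtracted signals overlapped, from 621 to 1051 in DEN/TAA and from 301 to 1479 in control, and their mean log2 difference was 0.06. The fall of Glul therefore rests on scaling between arrays. It was -1.41 against the percentile of the other genes and -0.75 against the spike-in probes (limma adjusted p = 0.0241).

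Oat, which passes ornithine carbon to glutamate and proline, had the largest difference of the 6. The scaled levels were -1.44, -2.06, -1.57, -1.53 and -1.18 in DEN/TAA rats, against 2.29, 3.32, 2.24, 2.30 and 2.89 in control rats. A gap of 3.42 separated the groups. The means were -1.56 ± 0.32 in DEN/TAA and 2.61 ± 0.48 in control (SD, n = 5 each), a difference of -4.17 (SE 0.24, limma adjusted p = 3.14e-07) that ranked 19 from the lowest of all genes tested. Oat fell even before scaling, with signals from 964 to 2737 in DEN/TAA and from 5678 to 23568 in control. A dimmer second probe gave -4.58 (SE 0.47) and was well above background on 2 of 5 DEN/TAA and 4 of 5 control arrays.

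Rhbg, the ammonium carrier, went the other way. In DEN/TAA rats the scaled levels were -2.31, -2.51, -2.45, -3.20 and -2.40, against -5.44, -4.49, -4.96, -5.0 and -5.33 in control rats. All 5 DEN/TAA arrays had it well above background, but only 3 of 5 control arrays did. The means were -2.58 ± 0.36 in DEN/TAA and -5.04 ± 0.37 in control (SD, n = 5 each), a difference of 2.47 (SE 0.22, limma adjusted p = 5.12e-06), ranked 287 from the highest. With control replicates 1 and 5, where it was not well above background, raised to the lowest detected signal of their arrays, Rhbg was 3.96-fold higher. The signal before scaling was 501 to 1326 in DEN/TAA and 19.0 to 105 in control. The difference was 0.79 with the normexp background model and 0.82 in the authors' table, and the cause of these smaller sizes was not tested.

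Slc1a2, the glutamate carrier, was dim in both groups. Its scaled levels were -6.07, -5.78, -6.47, -5.55 and -5.27 in DEN/TAA rats, against -3.78, -3.28, -4.71, -4.27 and -3.49 in control rats, and only DEN/TAA replicate 3 was not well above background. The groups were 0.55 apart at their nearest values. The means of -5.83 ± 0.47 in DEN/TAA and -3.91 ± 0.58 in control (SD, n = 5 each) gave a difference of -1.92 (SE 0.30, limma adjusted p = 0.000253). The astrocyte and nerve genes Gfap and S100b were detected on no array, and Aldh1l1, a folate enzyme that liver also makes, was the only tested gene of that list of 6, at -0.60 (limma adjusted p = 0.0269) and at 0.06 with spike-in scaling. Slc1a2 differed by -0.64 in the authors' table, its smallest value over 6 scalings.

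Rgn, the gluconolactonase regucalcin, was the brightest of the probes here on arrays of DEN/TAA rats and was read from 10 spots per array. The scaled levels were 0.36, 0.32, 0.12, -0.27 and 0.96 in DEN/TAA rats, against 1.49, 1.88, 1.85, 2.04 and 2.01 in control rats. DEN/TAA replicate 5 was the nearest to control, still 0.52 below the lowest control rat. The means were 0.30 ± 0.45 in DEN/TAA and 1.85 ± 0.22 in control (SD, n = 5 each), a difference of -1.55 (SE 0.22, limma adjusted p = 0.000114). As with Glul, the signals before scaling overlapped, from 3832 to 12062 in DEN/TAA and from 3091 to 9536 in control.

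Tbx3, the transcription factor, was lower on average but not in every comparison of rats. The scaled levels were -5.49, -6.05, -4.89, -6.59 and -6.86 in DEN/TAA rats, against -3.07, -1.96, -2.85, -5.72 and -5.88 in control rats. Control replicates 1 to 3 were high, while control replicates 4 and 5, both on slide 3 and neither well above background, lay among the DEN/TAA values. The means were -5.98 ± 0.80 in DEN/TAA and -3.90 ± 1.79 in control (SD, n = 5 each), a difference of -2.08 (SE 0.74, limma adjusted p = 0.0314). Within slides the difference was -3.26, -2.89 and -1.06 for slides 1, 2 and 3, and with slide as a block it was -2.52 (adjusted p = 0.00122). The call ended with quantile normalisation, spike-in scaling and the authors' table (adjusted p from 0.0865 to 0.161), and without any 1 of DEN/TAA replicates 2, 4 and 5 or control replicates 1, 2 and 3 (adjusted p from 0.0573 to 0.0726).

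The remaining Wnt genes were near or below background. Axin2 was well above background on DEN/TAA replicate 3 and control replicate 3 alone, both on slide 2, with scaled levels of -5.45 and -5.49. Lgr5 was detected on no array, and its signals of 11.6 to 18.0 in DEN/TAA and 11.6 to 16.5 in control leave no level to compare. A change of either gene was not detectable with these arrays.

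Subtracting 1 value per array cancels in the difference between 2 probes of that array, though background correction and quantile normalisation do not, and every pair of the 6 tested genes was also compared within each rat. In this measure 8 of the 15 pairs changed between the groups, each with an exact permutation p of 0.00794, the smallest possible, and an adjusted p of 0.0149 over the 15 pairs (two-sided). For Rhbg against Glul, Oat, Slc1a2 and Rgn this outcome was fixed by the single-gene levels above. Those levels did not overlap between the groups and moved in opposite directions, so these pairs are no separate test. Rhbg rose against each of the other 5 genes: the log2 difference of Rhbg minus Rgn changed by 4.02, minus Slc1a2 by 4.39 and minus Tbx3 by 4.55, while Glul minus Rhbg changed by -3.88 and Oat minus Rhbg by -6.63. These 5 pairs also passed with normexp and in the authors' table, at smaller sizes. In the authors' table Rhbg minus Rgn changed by 2.19, Rhbg minus Slc1a2 by 1.46, Rhbg minus Tbx3 by 1.52, Glul minus Rhbg by -1.93 and Oat minus Rhbg by -4.46, and with normexp the changes were 2.27, 2.45, 2.75, -2.15 and -4.77 in the same order. Oat fell further than Glul, Rgn and Slc1a2: Glul minus Oat changed by 2.75, Oat minus Rgn by -2.61 and Oat minus Slc1a2 by -2.24, with no overlap between the groups. Oat minus Tbx3 changed by -2.09, which did not pass (exact permutation test, adjusted p = 0.0926), but this pair did pass with normexp (-2.02, adjusted p = 0.0132), quantile normalisation (-2.42, adjusted p = 0.0265) and the authors' table (-2.95, adjusted p = 0.0132), and without DEN/TAA replicate 5 (-2.40, adjusted p = 0.0265). Among Glul, Slc1a2, Rgn and Tbx3 none of the 6 pairs passed the exact test, with changes between -0.53 and 0.67. Of these, Slc1a2 minus Rgn changed by -0.37 and turned in sign in the authors' table, where it passed (0.73, exact permutation test, adjusted p = 0.0357). Further pairs turned in sign there without passing. Glul minus Slc1a2 went from 0.51 to -0.47, Glul minus Tbx3 from 0.67 to -0.41 and Tbx3 minus Rgn from -0.53 to 0.67.

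**Figure D2:**
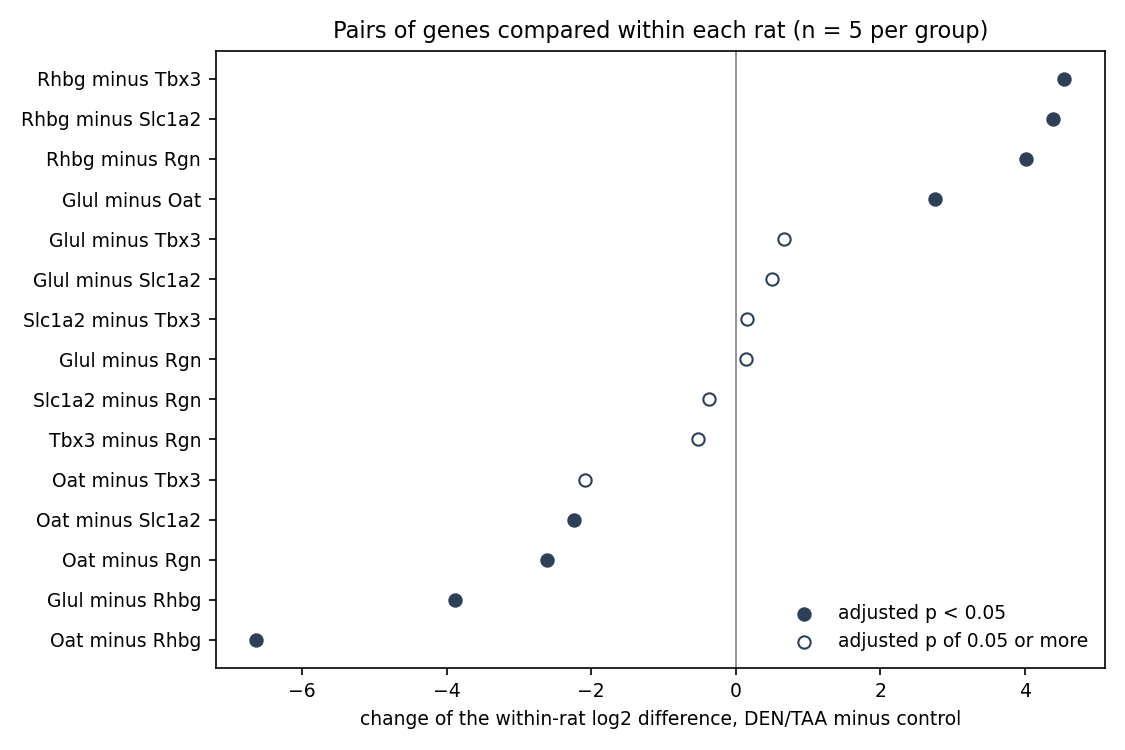
Change of the within-rat log2 difference between 2 genes, DEN/TAA minus control (horizontal axis), for the 15 pairs of the 6 tested genes, filled where the exact permutation p adjusted over the pairs was under 0.05. All 5 pairs with Rhbg and 3 of the 4 remaining pairs with Oat are filled, and the other 7 pairs are open. For Rhbg with Glul, Oat, Slc1a2 and Rgn this was fixed by the single-gene levels.

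The direction of each of the 6 differences held under 6 ways of scaling, but their sizes moved. Glul ranged from -1.72 with the percentile over all probes to -0.75 with spike-in scaling, still past the threshold there (limma adjusted p = 0.0241). Oat ranged from -4.47 to -3.51, Rgn from -1.86 to -0.89 and Slc1a2 from -2.23 to -0.64. The median of all genes moved too, from -0.28 with normexp to 0.99 with spike-in scaling. Set against that median, Glul lay at -1.81 to -1.07, Oat at -4.49 to -3.70, Rgn at -1.88 to -1.19, Slc1a2 at -2.29 to -0.72, Tbx3 at -2.41 to -0.77 and Rhbg at 0.74 to 2.14.

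**Figure D3:**
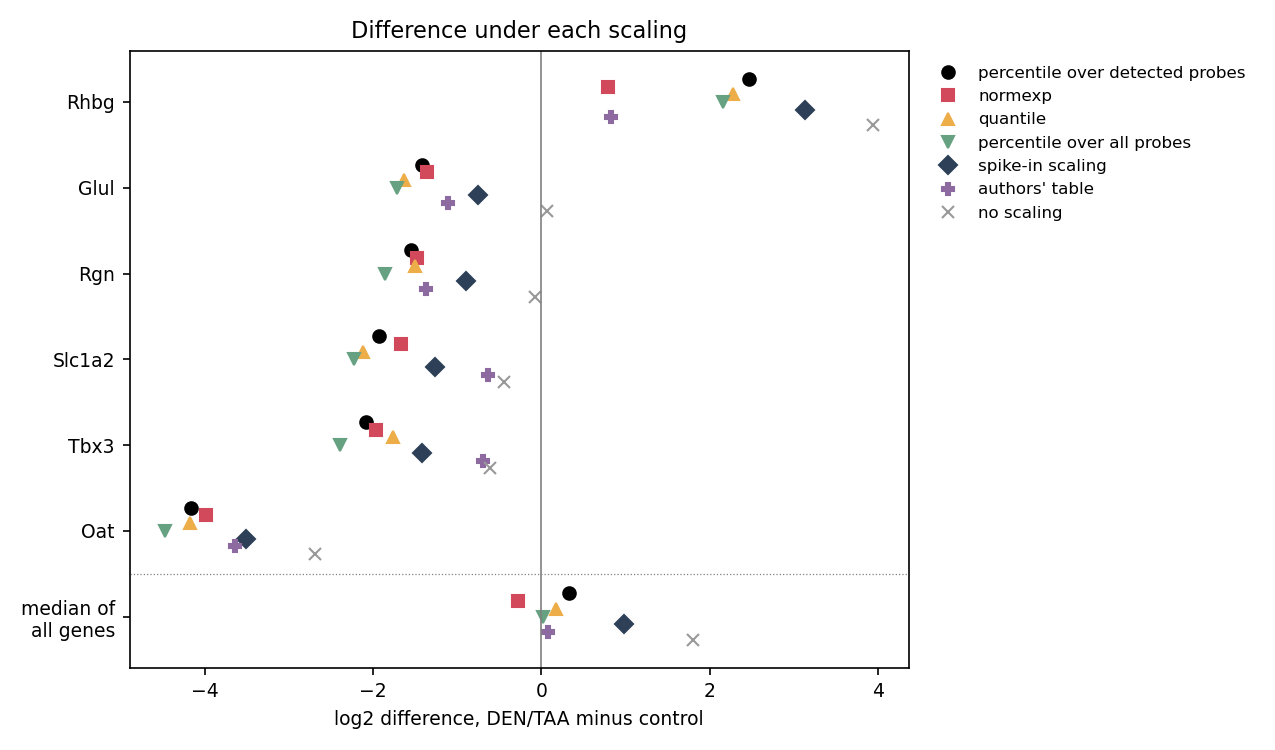
Log2 difference, DEN/TAA minus control (horizontal axis), of the 6 tested genes and of the median gene under 6 scalings and with no scaling between arrays. Rhbg stays right of 0 and Oat left of -2 throughout, while Glul and Rgn lie near 0 when arrays are not scaled, where the median gene lies at 1.80.

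Levels of general hepatocyte products fell in the same livers. Of 8 hepatocyte markers (Alb, Ttr, Apoa1, Apoc3, Tf, Serpina1, Fgb and Apob), 7 fell, against 2 to 7 lower and 0 to 2 higher over the 6 scalings. Apob was read from its brightest probe, at -0.76. Its other probes, each well above background on all 10 arrays, ran from -0.52 to 0.05. The mean level of the 8 markers was 4.61 ± 0.10 in DEN/TAA and 5.65 ± 0.23 in control (SD, n = 5 each). Set within each rat against that mean, Oat still differed by -3.13 and Rhbg by 3.51 with no overlap between the groups. Glul then differed by -0.38, Rgn by -0.52, Slc1a2 by -0.89 and Tbx3 by -1.04, each with overlapping groups. The outcome for Rhbg was fixed by the levels and is no separate test. Rhbg rose and the marker mean fell, each with no overlap between the groups. Among markers of other cells, 4 of 4 tested biliary and progenitor genes, 5 of 7 stellate and myofibroblast genes, 3 of 4 endothelial genes and 6 of 7 macrophage genes were called higher. Krt19, Spp1 and Prom1 of the biliary list and Cd163 and Trem2 of the macrophage list were detected on 5 DEN/TAA and 0 control arrays, so they passed the filter through the group where they were high and their calls carry no weight in these counts. Over the 6 scalings 2 to 4 biliary, 2 to 7 stellate, 1 to 4 endothelial and 4 to 7 macrophage genes were called higher, and up to 1 macrophage gene lower. Their summed levels relative to the percentile were 0.633 to 1.11 in DEN/TAA and 0.0619 to 0.127 in control for the biliary list, and 1.78 to 2.53 in DEN/TAA and 0.530 to 0.694 in control for the stellate list. The endothelial list summed to 1.52 to 2.03 in DEN/TAA and 1.07 to 2.21 in control, and the macrophage list to 6.54 to 9.26 in DEN/TAA and 1.82 to 4.33 in control. The biliary sum includes Krt19, Spp1 and Prom1, so its contrast between the groups carries no weight either. The macrophage sum includes Cd163 and Trem2. Thy1 of the stellate and Pecam1 of the endothelial list were detected on no array. The part of these cells in the differences of the 6 genes was not tested.

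Other parts of the Wnt pathway were thinly measured and moved in both directions. Of 14 tested receptors, ligands and intracellular parts, 2 rose, 4 fell and 8 did not pass, with a median of -0.15 against 0.33 for all genes, and over the 6 scalings 0 to 6 rose and 1 to 8 fell. Lrp5, a Wnt co-receptor, was 7.28-fold lower (limma adjusted p = 0.000973, from -3.17 to -0.76 on the log2 scale over the 6 scalings, well above background on 3 of 5 DEN/TAA and 4 of 5 control arrays), and Fzd1, a Frizzled receptor, fell by 1.12 (adjusted p = 0.000301), a call lost with spike-in scaling. Dvl1, a relay protein below the receptors, fell by 0.66, and its sign was turned, at 0.0005, with spike-in scaling. Wls, which carries Wnt proteins out of the cell, rose by 2.16 (adjusted p = 3.12e-05), detected on 5 DEN/TAA arrays and 1 control array, a call lost with normexp. The ligand Wnt4 was detected on no control array, so it passed the filter through DEN/TAA and its call carries no weight in the count. With control arrays raised to their lowest detected signals it was 1.66-fold higher, which was not called (limma adjusted p = 0.122). Its sign turned with normexp, at -0.13. Ctnnb1, beta-catenin itself, differed by -0.05 (SE 0.37, adjusted p = 0.911), and 9 listed genes, Wnt9b and Wnt5a among them, were detected on no array.

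Known Wnt targets split. Of 5 tested, 3 rose and 2 fell, with a median of 2.17. Notum, a secreted enzyme that inactivates Wnt proteins and is a feedback target in pericentral hepatocytes, fell by 4.56 (SE 0.43, limma adjusted p = 6.43e-06), and was well above background on 3 of 5 DEN/TAA and all control arrays. Over the 6 scalings Notum ranged from -4.86 to -1.64. Lect2, a secreted hepatocyte protein, fell by 1.94. Ccnd1 (cyclin D1) rose by 2.17 and Myc by 2.30, and Cd44, a hyaluronan receptor of many cell types, was at least 3.96-fold higher. Cd44 was detected on no control array, so it passed the filter through DEN/TAA and its call carries no weight in the count. With the normexp background that call was lost, at 0.92. Dkk3 passed as higher, yet averaged less in DEN/TAA than the detection floor of the control arrays, so its direction is uncertain; with Notum it made up the 2 tested genes of the 15 listed Wnt inhibitors.

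Enzymes around glutamate, glutamine, ornithine and proline mostly fell. Of 22 tested, 13 fell, 7 rose and 2 did not pass, with a median of -1.03. Asns and Aldh18a1, among the 7, were detected on no control array. They passed the filter through the group where they were high, and their calls carry no weight in this count. The proline-degrading enzymes Prodh and Prodh2 fell by 3.69 and 2.44 (limma adjusted p = 5.96e-06 and 7.54e-06), and Ass1 of the urea cycle fell by 2.07 (adjusted p = 6.16e-06). Asns, which uses glutamine to make asparagine, was at least 4.06-fold higher on the scale used here and above background on no control array, with log2 differences from 1.23 to 4.37 over the 6 scalings. Odc1, which turns ornithine into putrescine, rose by 2.04 (adjusted p = 2.34e-06), and Pycr1, the last step of proline synthesis, rose by 2.42 (adjusted p = 0.000898), above background on 2 of 5 control arrays. Pycr1 lost its call with the normexp background, at 0.84, and over the 6 scalings the list gave 2 to 7 higher and 5 to 13 lower genes.

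Carriers of ammonia, glutamate and glutamine did not move as a group. Of 9 tested, 4 fell, 3 rose and 2 did not pass, with a median of -0.28. The glutamine carriers Slc38a3 and Slc38a4 fell by 1.77 and 1.33 (limma adjusted p = 2.79e-05 and 6.60e-05), and Aqp9, a glycerol and urea channel, fell by 0.88, a call lost with spike-in scaling. Slc1a5, a glutamine carrier of growing cells, was at least 2.26-fold higher, though with the normexp background its call was lost, at 0.17. The cystine-glutamate exchanger Slc7a11 was 1.84-fold higher with control arrays raised to their lowest detected signals, which was not called (limma adjusted p = 0.124). Its sign turned with normexp, at -0.04. Both Slc1a5 and Slc7a11 were detected on no control array, so they passed the filter through DEN/TAA and their calls carry no weight in the count. Aqp8, a water channel that also passes ammonia, rose by 0.71, with no call under the percentile over all probes. The relatives of Rhbg, Rhag and Rhcg, were detected on no array.

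**Figure D4:**
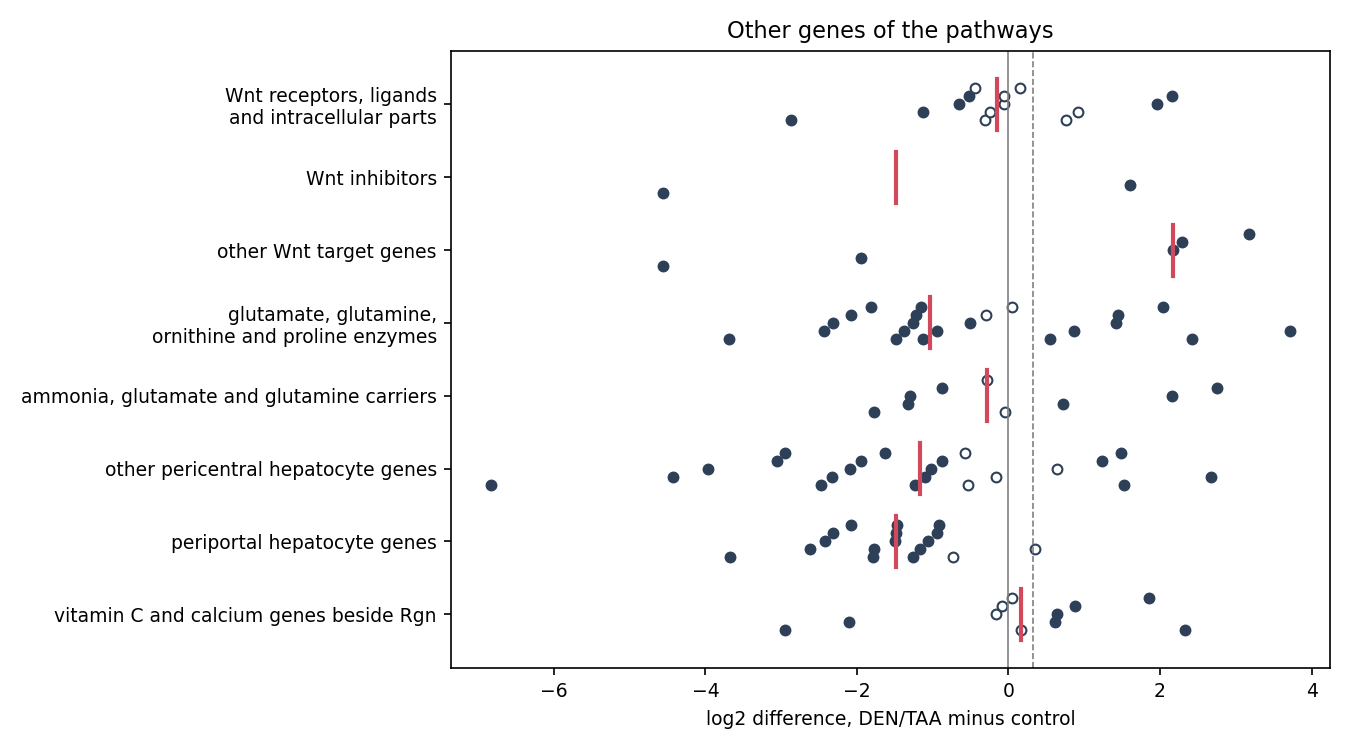
Log2 difference, DEN/TAA minus control (horizontal axis), of each tested gene in 8 lists of related genes, filled where limma's adjusted p was under 0.05; red bars are list medians, the dashed line is the median of all genes and the solid line is 0. Of the periportal genes 15 of 17 fell and of the pericentral genes 14 of 22, with 4 pericentral genes higher. The 14 include Avpr1a, detected on no DEN/TAA array.

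Genes of both ends of the lobule fell. Of 22 other pericentral genes tested, 14 fell, 4 rose and 4 did not pass, with a median of -1.17. Of 17 periportal genes, 15 fell, none rose and 2 did not pass, with a median of -1.49. Avpr1a, a vasopressin receptor of pericentral hepatocytes, was detected on 0 DEN/TAA arrays and at least 67.8-fold lower on the scale used here, with log2 differences from -7.13 to -2.93 over the 6 scalings. Avpr1a passed the filter through control, where it was high, so its call carries no weight in the count of 14. Cyp1a2, a cytochrome P450, fell by 4.43 (limma adjusted p = 2.57e-06) and Slc13a3, a dicarboxylate carrier, by 3.96 (adjusted p = 3.83e-06). The pericentral genes that rose included Aldh1a1 by 2.67 and the glutathione transferases Gstm1 by 1.52 and Gstm3 by 1.49, and Gstm3 lost its call with normexp. On the periportal side Ass1 was lower as above, Fbp1 of gluconeogenesis was 2.83-fold lower and Igf1, a growth factor, 3.45-fold lower. Over the 6 scalings 9 to 15 pericentral genes and 9 to 16 periportal genes fell. Whether the pericentral and the periportal list differ from each other was not tested.

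Around Rgn, the enzyme after it in vitamin C synthesis and the vitamin's carrier were also lower. Gulo, gulonolactone oxidase, fell by 2.95 (limma adjusted p = 2.31e-05), and the ascorbate carrier Slc23a1 was 4.31-fold lower (adjusted p = 8.28e-06). Ugdh, which makes UDP-glucuronate, rose by 2.34 (adjusted p = 1.67e-06) and the aldehyde reductase Akr1a1 by 0.88. Of the 11 tested genes of this list 5 rose, 2 fell and 4 did not pass, with a median of 0.17. S100a1, a calcium-binding protein, passed as higher, yet was detected on no control array and averaged less in DEN/TAA than the detection floor of the control arrays. Its call carries no weight in this count.

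Among 3556 genes well above background on all 10 arrays, those with the profile closest to each gene were ranked by the root mean square difference of log2 levels over the 10 arrays, each gene centred on its own mean. Closest to Rgn were Rpp21 and Tgfbi (0.130 and 0.149), and to Glul Cd14 and Etfb (0.252 and 0.306). Closest to Oat were Slc27a5 and Prodh (0.404 and 0.475), to Slc1a2 Il33 and Apoc2 (0.331 each) and to Rhbg Atp5if1 and Slc40a1 (0.351 each). Tbx3 had no close match, its nearest being Rxrg and Cat (0.861 and 0.931). The distances were taken over both groups together, so a step between the groups counts in them.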

How the data were processed

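Liver RNA (150 ng per array) was labelled with Cy3 and hybridised to 1 array per rat, per the labels' protocols. Spot intensity in the deposited scanner tables was background-subtracted by Feature Extraction 11.5.1.1 (Agilent) and not scaled between arrays, per the file headers. The submitters' processing notes name version 15.5. The authors' deposited table holds log2 values whose order in each column followed the raw median signal with a Spearman's rho of 1 and whose column medians ran from 8.592 to 8.594; the sources used here name no step that made it. There were 3 slides, each a scan batch of its own with rats of both groups.

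Control spots and spots with an outlier flag were left out, no spot was saturated, and spots of a probe were averaged as log2. A probe counted as well above background on an array when most of its spots were. Of 41012 probes, 17502 had 1 rat gene symbol through their RefSeq accession (GRCr8), 0 had several and 23510 had none. Probes well above background on at least 5 of 10 arrays were kept, and a gene was represented by its brightest one. The fit was limma 3.58.1 in R 4.3.3 on all 10 arrays without covariates, two-sided. For "at least" folds, the group with no detected array was averaged after each of its values was raised, where lower, to that array's detection floor, its lowest signal of a probe well above background. Alternatives were normexp (offset 50, on median spot signals, since a mean signal was not in the files used), quantile normalisation, the percentile over all probes, the mean of 5 spike-in probes, the authors' table, other filters and probe rules, blocks, priors, array weights and leaving out each rat. Removing the 2 dimmest control arrays, raising undetected arrays to the floor and using no scaling were chosen after seeing the data.

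The genes and lists were chosen with earlier results of these data known. Named from each list were every gene of the main set and, by adjusted p, at most 3 called genes per direction from each other list; Ctnnb1, Gfap, S100b, Rhag, Rhcg, Wnt5a, Wnt9b, Thy1, Pecam1, Spp1, Cd163, Aldh18a1, Alb, Apoa1, Tf, Fgb and Apob were named after their values were seen. The limma p-values set each group difference against the spread between these rats within a group. For each gene, that spread was drawn towards the spread of all genes tested.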

Additional observations from a re-analysis of the deposited data

Results flagged for a closer look

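In 3 of 20 groups of 5 rats checked, over the 10 probes, 1 rat stood apart from the other 4, with a gap to its neighbour of over 0.710 of the group's range; chance does this in about 1 group in 20. Rhbg in DEN/TAA replicate 4 was at -3.20, below the next value of -2.51, and still above every control rat. The second Glul probe was at -4.36 in DEN/TAA replicate 1, below the next value of -3.48, and at -2.79 in control replicate 5, below the next value of -1.93. Control replicate 5 was the array with the fewest spots above background, and its part in that value was not tested.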

How the results depend on the processing

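With 1 rat left out at a time, Glul gave -1.53 to -1.24, Oat -4.26 to -3.99, Rgn -1.72 to -1.41, Slc1a2 -2.12 to -1.76 and Rhbg 2.37 to 2.63, all past the threshold, and Tbx3 -2.58 to -1.60 (limma adjusted p from 0.00752 to 0.0726). Tbx3 was not called with quantile normalisation (-1.76), spike-in scaling (-1.42), the authors' table (-0.69) or no scaling (-0.60). With no scaling, the sign of Glul turned (0.064), Slc1a2 and Rgn were not called (-0.45 and -0.077), and 1 of the genes was called lower, against 5. The filter on all 10 arrays left 3 called lower and 0 higher, since Rhbg, Slc1a2 and Tbx3 did not pass it. With no filter, Axin2 differed by -0.62 (adjusted p = 0.292) and Lgr5 by -1.30 (adjusted p = 0.00685), although Lgr5 was above background on no array. Over all genes, 2688 were called higher and 1116 lower, against 883 and 1949 with normexp, 4442 and 396 with spike-in scaling, 1617 higher when the percentile took in every probe, 1152 higher with the filter on all 10 arrays, 5800 lower with no filter, 5743 and 127 with no scaling, and 5063 and 1955 when every probe was counted. In the lists, 25 genes were called higher and 47 lower, against 10 higher with normexp, 12 higher with the filter on all 10 arrays, 26 lower with spike-in scaling, 73 lower with no filter, and 48 and 12 with no scaling. The 25 and 47 include genes detected only in DEN/TAA or only in control. Of the 15 pairs, 8 passed, against 10 in the authors' table, 9 each with quantile normalisation and normexp, and 8 to 9 with 1 rat left out. The cause of these shifts was not tested. Equal replicate numbers were not taken to pair the rats. Same-numbered rats' deviations correlated from -0.218 to 0.205, and 4 of 10 rats correlated best with their own number, which cannot exclude a pairing. The fit with replicate number as a block called 2685 higher and 1121 lower, Tbx3 had a limma adjusted p of 0.00638, and no call among the 6 genes changed. Without the 2 dimmest control arrays no call among the 6 genes changed either. Dim signal limits Rhbg in control and Slc1a2 and Tbx3 in both groups.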
